A study of Mus musculus with 45 samples.

Results

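Many obesity-related differentially methylated regions (DMRs) of the mouse colonic epithelium lay in intergenic DNA far from the start of any gene, and these far intergenic DMRs are described here. Whole-genome bisulfite sequencing (WGBS), in which unmethylated cytosines are converted and methylated ones are not, had yielded 8199 DMRs for obese against control mice, each with a position and a direction. A DMR was taken as far intergenic when its midpoint lay outside every gene span and over 50 kb from the nearest gene start, with spans and starts as the RNA-seq count table gave them. The rule kept 2201 DMRs, 26.8% of the list. It used no methylation value, no direction and no expression value.

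The epithelium came from the whole colon of male C57BL/6 mice (C57BL/6J in the study's methods) that entered the study at 6 weeks of age, with 5 mice per group. Control mice stayed for 20 weeks on a low-fat diet (10% fat), obese mice for 20 weeks on a high-fat diet (60% fat), and formerly obese mice for 15 weeks on the high-fat diet and then 5 weeks on the low-fat diet. The labels name no transgene or deletion in any group. The DMR list compared only obese with control mice and held no value per mouse, whereas RNA-seq and sequencing of bisulfite PCR amplicons (BSP-seq) gave values for each mouse of all 3 groups.

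In mammals, DNA methylation sits mostly on the cytosine of the dinucleotide CpG. Outside gene starts and CpG-dense stretches most CpGs are methylated, and the long gene-poor stretches called gene deserts hold few CpGs and many copies of mobile elements such as LINE-1, whose methylation keeps them silent. Gene deserts often flank genes that direct development, and some of them hold enhancers, stretches that act on a gene from a distance and that tend to lose methylation where they are active.

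Of the far intergenic DMRs, 1147 had higher and 1054 lower methylation in obese mice, so that 52.1% were higher (95% exact binomial interval 50% to 54.2%). Intervals on DMR counts and shares cover counting error only, since DMRs are not replicates of a diet. The share was 48.4% (46.2% to 50.5%) over 2078 intergenic DMRs nearer to a gene start, 49.3% (47.5% to 51.0%) over 3218 DMRs in gene bodies and 54.8% (51.1% to 58.6%) over 702 DMRs within 2 kb of a gene start. The interval of the far intergenic DMRs thus overlapped those of the other 3 classes, and no test of the difference was run.

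The median distance to a gene start was 142 kb (quartiles 83.7 and 272 kb), and 74 DMRs lay over 1000 kb away. The DMRs just inside the limit were 50.1 kb from D130017N08Rik, 50.2 kb from Foxp4 and 50.3 kb from Guca2b. Those just outside it lay 49911, 49964 and 49965 bases from Mir9-3, Grid1 and Nr3c1.

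The label was checked against a fuller annotation, GENCODE M21, which holds 55450 genes against 24918 entries in the count table. By that annotation 340 of the far intergenic DMRs (15.5%) lay inside a gene span, of which 127 were in a protein-coding span and 158 in the span of a long intergenic noncoding RNA. Only 754 (34.3%) were still over 50 kb from every annotated start, but 2007 (91.2%) were still far from every protein-coding gene. The DMRs were thus far from the gene starts of the count table, and not all of them were far from every annotated transcript. Nor were all of them far from a gene span of the count table. The nearest edge of a span was over 50 kb away for 1882 DMRs, and the shortest distance was 0.195 kb.

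The calling merged differing CpGs and kept no region with only 1, so every DMR began and ended on a CpG and held at least 2. Of the far intergenic DMRs 2095 (95.2%) held no more than these 2 CpGs, which were then immediate neighbours on the chromosome. Only 90 held 3 CpGs, 13 held 4, and 3 held more. The sequences of the 5 DMRs with the most CpGs are shown because they are exceptions to this form. The last 2 are the narrowest of 13 tied at 4 CpGs. Each is given on the plus strand of mm10 (GRCm38, sequence from NCBI RefSeq) from its first to its last CpG, with the CpGs in capitals. The first 3 and the last were higher in obese mice, and the fourth was lower.
chr8:20122784-20122843: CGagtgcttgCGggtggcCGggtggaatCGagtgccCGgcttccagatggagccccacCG
chr10:99204756-99204816: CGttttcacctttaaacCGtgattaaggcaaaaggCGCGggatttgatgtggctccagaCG
chr16:87237298-87237446: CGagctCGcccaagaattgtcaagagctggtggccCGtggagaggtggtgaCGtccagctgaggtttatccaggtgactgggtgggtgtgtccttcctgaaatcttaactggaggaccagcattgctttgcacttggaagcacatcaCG
chr12:9359074-9359094: CGgggCGtgcaaggtacCGCG
chr11:110671240-110671262: CGCGCGcaggcagctcagtcaCG

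The genes nearest to these 5 were 6820431F20Rik at 175 kb, Dusp6 at 58.5 kb, N6amt1 at 117 kb, 1700022H16Rik at 212 kb and Map2k6 at 272 kb. Dusp6 encodes a phosphatase that switches off the kinase ERK, and Map2k6 a kinase that activates p38.

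The 5 DMRs farthest from any gene start are shown as the extremes of distance, and each is a pair of CpGs. Each is given with flanking sequence, 120 bases in all, on the plus strand of mm10, and only the CpGs that form the DMR are in capitals.
chr14:82159689-82159808: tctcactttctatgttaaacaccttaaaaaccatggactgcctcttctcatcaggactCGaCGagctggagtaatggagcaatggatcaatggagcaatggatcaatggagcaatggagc
chr2:99593487-99593606: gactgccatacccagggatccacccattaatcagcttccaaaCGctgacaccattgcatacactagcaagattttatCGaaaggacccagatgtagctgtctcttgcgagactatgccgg
chr2:98317222-98317341: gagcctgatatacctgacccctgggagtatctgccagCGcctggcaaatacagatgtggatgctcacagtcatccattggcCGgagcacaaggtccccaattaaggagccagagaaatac
chr3:24237448-24237567: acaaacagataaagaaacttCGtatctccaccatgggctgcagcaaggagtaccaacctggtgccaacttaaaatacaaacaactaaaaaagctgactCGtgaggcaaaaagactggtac
chrY:39937923-39938042: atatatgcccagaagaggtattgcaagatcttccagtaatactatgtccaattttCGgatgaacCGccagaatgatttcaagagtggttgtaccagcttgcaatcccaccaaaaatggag

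They lay 2159 kb from Olfm4, 2031 kb from Rag2, 1999 kb from Lrrc4c, 1986 kb from Rprl2 and 1980 kb from Gm20738, in that order. The first 2 were higher and the last 3 lower in obese mice. Over 90% of the 300-base window around each of the last 4 was repeat-masked in the reference, against 52.7% around the first.

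Because nearly all far intergenic DMRs were pairs of neighbouring CpGs, the width of a DMR was the spacing of its pair. Width had a median of 38 bases (quartiles 14 and 112), against 28 bases for nearer intergenic DMRs, 27 in gene bodies and 18 at gene starts. Far intergenic DNA is poor in CpGs, with 0.640 CpGs per 100 bases, and the 6846531 pairs of neighbouring CpGs in it spanned a median of 82 bases. The 2095 DMRs with 2 CpGs spanned a median of 37 bases, and 34.0% of them spanned at most 20 bases, against 18.1% of all pairs there. Pairs in DMRs were thus closer together than CpGs in far intergenic DNA in general, and they were wider than the pairs in other DMRs. Elsewhere all neighbouring CpGs spanned a median of 52 bases. There the DMRs with 2 CpGs spanned 26 bases in nearer intergenic DNA, 26 in gene bodies and 18 at gene starts. Close pairs were thus common to all 4 classes. Width did not separate the directions, with medians of 36 bases for pairs higher and 38 bases for pairs lower in obese mice.

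**Figure D1:**
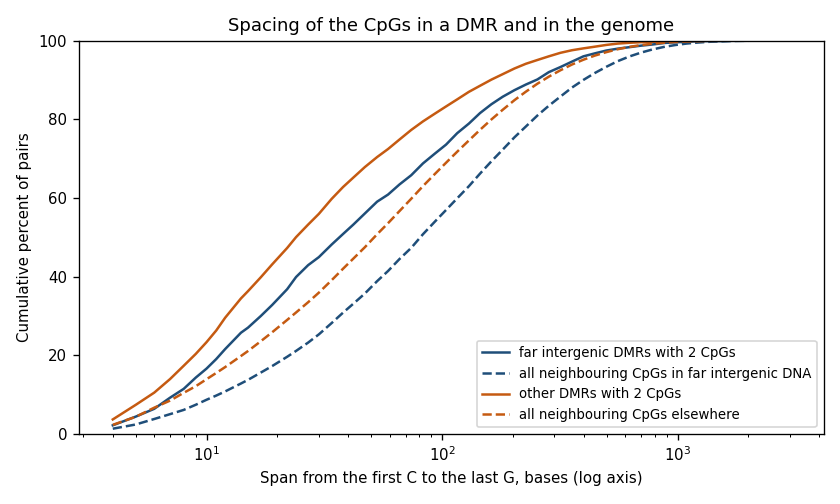
The x axis gives the span of a pair of CpGs in bases on a log scale and the y axis the cumulative percent of pairs. Solid lines are DMRs with 2 CpGs and dashed lines all neighbouring CpGs of the genome, in blue for far intergenic DNA and in orange elsewhere. The solid blue line reaches 50.8% at 38 bases, where the dashed blue line is at 30.8%.

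A few DMRs departed from this form in the other direction. The widest spanned 2112 bases, chr10:38056899-38059010, with no CpG between its 2 end CpGs, and was lower in obese mice. The next 4 spanned 1676, 1611, 1298 and 1217 bases, near Kcnv1, Cntnap5c, Robo2 and Tecrl. Of these 4 DMRs, those near Kcnv1 and Tecrl were higher and those near Cntnap5c and Robo2 lower.

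Far intergenic DNA made up 40.4% of the sequenced bases of the reference but 31.3% of its CpGs and 26.8% of the DMRs. Per 100000 CpGs it held 32.1 DMRs (95% Poisson interval 30.8 to 33.5), against 45.2 (43.3 to 47.2) in nearer intergenic DNA, 38.0 (36.7 to 39.3) in gene bodies and 36.0 (33.4 to 38.8) around gene starts. Within the class the rate fell with distance, from 39.97 at 50 to 100 kb and 37.7 at 100 to 200 kb to 26.9 at 200 to 500 kb and 20.9 (18.5 to 23.6) over 500 kb. Rates of DMRs higher and lower in obese mice fell alike, to 10.8 and 10.1 over 500 kb.

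The share of CpGs in repeat-masked sequence, written in lower case in the reference, rose over the same range from 32.4% at 50 to 100 kb to 55.3% over 500 kb. Chromosome Y, nearly all of which is repeated, held only 16 far intergenic DMRs, a rate of 3.50. The rates were therefore taken again without chromosome Y and apart for DMRs whose first CpG was masked or not, an alternative added after seeing the data. For unmasked CpGs the rate fell from 47.2 (43.4 to 51.2) at 50 to 100 kb to 31.7 (28.6 to 35.2) at 200 to 500 kb and 23.0 (19.2 to 27.3) over 500 kb. For masked CpGs it was 26.8 (22.7 to 31.5), 23.0 (19.6 to 26.8) and 26.5 (22.1 to 31.6) at these distances, with overlapping intervals. The fall with distance was thus seen for unmasked CpGs and not for masked ones. With chromosome Y included, CpGs also grew sparser, from 0.765 per 100 bases at 50 to 100 kb to 0.518 over 500 kb. The read depth at each CpG was not analysed here. The parts of CpG density and read depth in these rates were not tested.

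**Figure D2:**
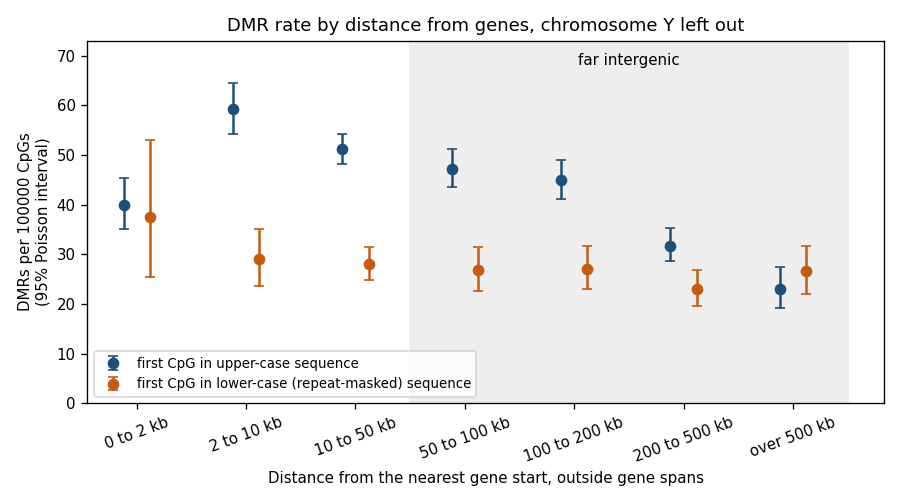
The x axis gives the distance from the nearest gene start outside gene spans and the y axis the number of DMRs per 100000 CpGs, with bars for the 95% Poisson interval and chromosome Y left out. Blue points are DMRs whose first CpG was unmasked, orange points those whose first CpG was repeat-masked, and the shaded bins are far intergenic. Blue falls from 47.2 to 23.0 across the shaded bins, and orange stays between 23.0 and 27.0.

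Repeated sequence was more common around far intergenic DMRs than around the other 3 classes. Over 50% of the 300-base window was repeat-masked for 27.9% of them, against 17.3%, 9.5% and 5.0% for nearer intergenic, gene body and gene start DMRs. This followed the DNA of each class, in which 39.9%, 31.3%, 18.9% and 8.69% of all CpGs were masked. Of the CpGs in far intergenic DMRs 26.7% were masked, so they were masked less often than far intergenic CpGs in general. Uniqueness was also measured directly, by counting every stretch of 31 bases of the window over the chromosomes of the reference. All stretches occurred once for 1316 far intergenic DMRs (59.8%, interval 57.7% to 61.9%), against 65.7%, 79.1% and 82.2% in the other classes. Over 50% of the stretches were repeated for 408 (18.5%, 16.9% to 20.2%), against 10.3%, 4.2% and 2.4%. For 196 far intergenic DMRs (8.9%) the median stretch occurred over 100 times.

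Of DMRs in fully unique windows 53.3% (50.6% to 56.1%) were higher in obese mice, and of those in mostly repeated windows 48.8% (43.8% to 53.7%). The intervals overlapped. Repeated sequence limits how surely a short read can be placed, and its part in the calls was not tested.

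**Figure D3:**
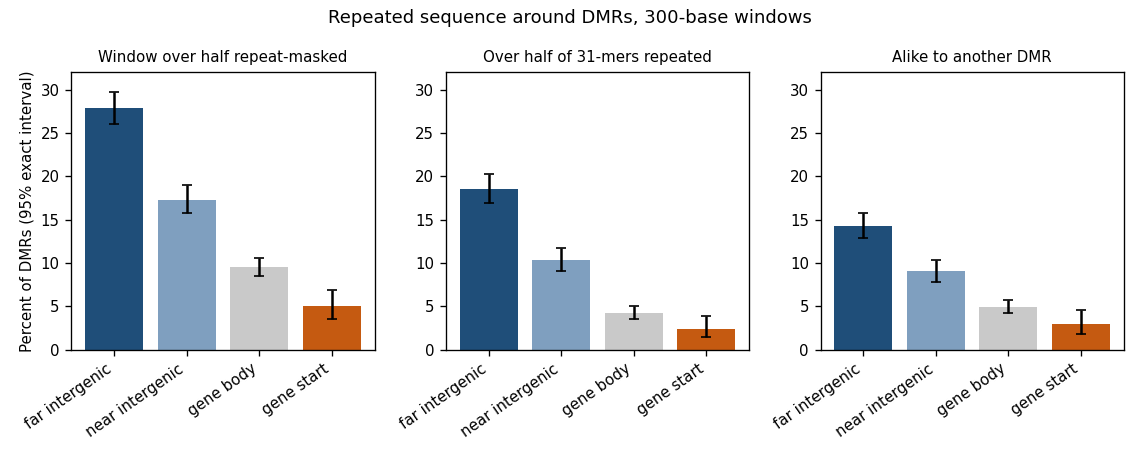
Bars give the percent of DMRs of each class and lines the 95% exact binomial interval. From left to right the panels show windows over 50% repeat-masked, windows with over 50% of their 31-base stretches repeated in the reference, and windows alike to that of another DMR. In each panel the far intergenic bar is the highest, at 27.9%, 18.5% and 14.3%.

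Many of the repeated windows were copies of each other. The window of 314 far intergenic DMRs (14.3%, 12.8% to 15.8%) matched that of another DMR of the list at 90% identity or more over at least 150 bases, against 9.0%, 4.9% and 3.0% in the other classes. Matches among far intergenic DMRs joined 289 of them into 38 families. The 2 largest families had 74 members each on 18 chromosomes, and the next had 26 members. In the first family 30 DMRs were higher and 44 lower in obese mice, in the second 34 and 40, and in the third 14 and 12, so that none of the 3 moved one way. The farthest DMRs shown above on chromosome Y and at chr2:99593529-99593565 belonged to the third and the second family. The kind of repeat was not assigned.

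The second family showed this at single CpGs. In 5 of its members the DMR spanned 65 bases and lay on the same pair of CpGs of the repeat, which was methylated more in obese mice in 2 copies and less in 3. These 5 copies are shown because they carry alike CpGs in alike sequence at 5 places on 4 chromosomes, on mm10, with the CpGs of the DMR in capitals. The second copy is given on the minus strand and the others on the plus strand. The copies on chromosome 6 and at chr9:71043720-71043839 were higher and the other 3 lower. They were chosen after their directions were known.
chr3:33238159-33238278: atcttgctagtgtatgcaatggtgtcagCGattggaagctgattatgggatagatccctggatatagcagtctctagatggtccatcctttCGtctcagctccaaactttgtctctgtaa
chr6:109187099-109187218: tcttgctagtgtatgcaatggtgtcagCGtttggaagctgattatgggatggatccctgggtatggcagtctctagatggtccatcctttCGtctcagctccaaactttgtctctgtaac
chr9:71043720-71043839: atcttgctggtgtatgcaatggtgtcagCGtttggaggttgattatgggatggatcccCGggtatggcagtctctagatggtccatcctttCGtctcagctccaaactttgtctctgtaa
chr9:93716659-93716778: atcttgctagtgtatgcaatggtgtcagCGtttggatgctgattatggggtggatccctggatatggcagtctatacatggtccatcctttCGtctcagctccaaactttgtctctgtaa
chr12:45293238-45293357: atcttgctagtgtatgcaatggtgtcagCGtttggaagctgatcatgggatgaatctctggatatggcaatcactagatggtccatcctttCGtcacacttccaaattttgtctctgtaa

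The copies differ at a few scattered bases, and the first copy on chromosome 9 has a further CpG between the shared ones. In the first family the width shared by most members, 206 bases, was found in 4 of them, of which 3 were higher and 1 lower.

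Short motifs of transcription factors were counted in the 300-base windows on both strands. The GATA motif, spelled AGATAA, was found in 17.8% of far intergenic windows (16.2% to 19.4%) against 14.8% (13.9% to 15.7%) of all other DMR windows, and the FOXA motif, spelled TGTTTAC, in 6.1% (5.1% to 7.2%) against 4.6% (4.0% to 5.1%). KLF (CACNCCC) was found in 20.2% (18.6% to 22.0%) against 23.6% (22.5% to 24.7%). For GATA and KLF the intervals did not overlap, and for FOXA they nearly touched (lower bound 5.125% against upper bound 5.11%). Against nearer intergenic DMRs alone the intervals overlapped for GATA, FOXA and KLF. There the shares were 15.9% (14.3% to 17.5%), 4.4% (3.5% to 5.35%) and 23.2% (21.4% to 25.1%). Median GC content was 46.3% around far intergenic DMRs, against 48.3% to 50.7% in the other classes, and its part in these shares was not tested. AP-1 (TGANTCA) was in 9.5% against 8.8%, CDX (CNATAAA) in 17.0% against 15.5%, HNF4 (AAGTCCA) in 5.5% against 4.6%, E-box (CACGTG) in 6.4% against 6.9%, E2F (TTCCCGC) in 1.6% against 2.0% and ETS (CCGGAA) in 4.7% against 6.1%. GATA, FOXA, CDX and HNF4 proteins shape gut epithelium, and a match is a description of letters, not of binding. GATA was found around 17.9% (15.7% to 20.2%) of DMRs higher and 17.6% (15.4% to 20.1%) of DMRs lower in obese mice, FOXA around 6.1% of both, and AP-1 around 10.3% (8.6% to 12.2%) and 8.6% (7.0% to 10.5%).

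Chromosome 5 stood out in direction. Of its 144 far intergenic DMRs 95 were higher and 49 lower in obese mice, a share of 66.0% (57.6% to 73.7%), the highest of the 21 chromosomes. The other 473 DMRs of chromosome 5 were balanced, with 50.5% (45.9% to 55.1%) higher. The share on chromosome 5 was 66.3% of 89 DMRs over 100 kb from a gene start, 66.7% of DMRs at least 50 bases wide and 65.5% of narrower ones, and it was 57.7% to 73.1% in the 4 successive stretches of 40 Mb. Chromosomes 11 (62.2% of 90, 51.4% to 72.2%) and 13 (61.9% of 126, 52.8% to 70.4%) came next, and the intervals of the other 18 chromosomes held 50%. At over 200 kb from a gene start, chromosome 5 had 70.7% of 41 DMRs higher. Chromosome 11 had 74.2% of 31 and chromosome 13 had 51.6% of 31. The chromosomes were picked for these shares, so no test was run. Cuts by distance, width and stretch are parts of the same DMRs and lend no separate support.

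The X chromosome held 121 far intergenic DMRs, 44.8% of all its DMRs, at 27.96 per 100000 CpGs. Among autosomes the rate ran from 25.01 on chromosome 16 to 44.8 on chromosome 19.

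The far intergenic DMRs lay in 1260 gaps between genes, 759 of which held 1 DMR. Their median distance from one to the next was 580 kb. Among 313 neighbouring pairs within 50 kb of each other, 168 (53.7%, 48.0% to 59.3%) had the same direction, against 52.9% (50.3% to 55.5%) of pairs among all other DMRs. Within 5 kb there were 55 pairs, 35 of the same direction and 20 of opposite directions, down to a gap of 3 bases. The study's methods state that differing CpGs within 5000 bases were merged into regions. Why same-direction pairs stayed apart at this range is not known here, and the part of merging in these counts was not tested. Direction was thus nearly as often mixed as shared within 50 kb. For the few pairs within 5 kb no interval was taken.

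The 6 gaps with the most far intergenic DMRs showed both forms. The richest, on chromosome 4 between Matn1, which encodes a cartilage matrix protein, and Ptpru, a receptor-type tyrosine phosphatase, held 10 DMRs in 813 kb. In all 10 windows the median stretch of 31 bases occurred once. The 4 nearest to Matn1, from chr4:131162271-131162358 to chr4:131326907-131326970, were higher in obese mice and the 4 nearest to Ptpru, from chr4:131483575-131483734 to chr4:131716740-131716765, lower, with 1 of each between them. The gap between Sall3, a transcription factor gene of limb and nerve development, and Mir5127 held 9 DMRs, and the 6 nearest to Sall3, at 60.4 to 395 kb, were all higher. Between Mroh5 and Bai1, an adhesion receptor gene, 6 of 8 were higher. The gaps were chosen by their number of DMRs, but these runs were singled out after the directions were seen, and no test was run.

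The other 3 gaps were mixed. The gap of 4422 kb between Olfm4, which marks intestinal stem cells, and the protocadherin gene Pcdh17 held 9 DMRs, 5 higher and 4 lower. Between Dsel and Cntnap5a 4 of 8 were higher, and between Nr5a2, a nuclear receptor gene of the gut crypt, and Mir181a-1 3 of 8 were.

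**Figure D4:**
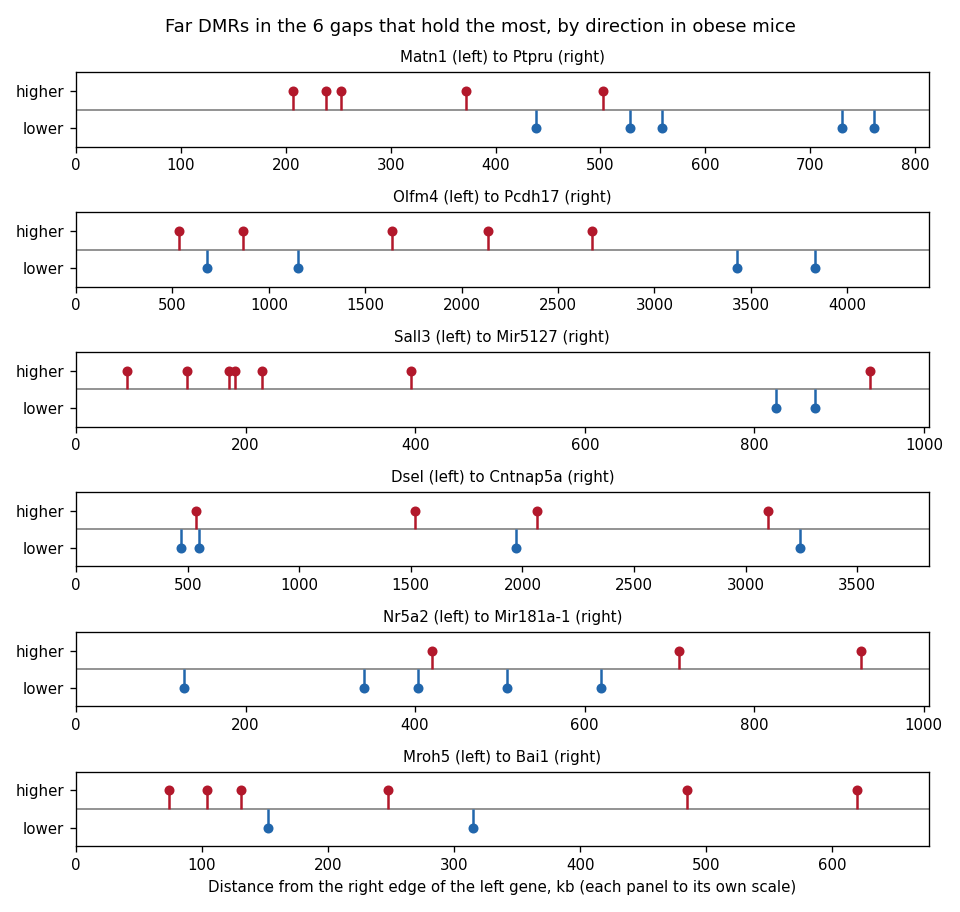
Each panel is one gap between genes, with the distance from the left gene on the x axis in kb, to its own scale. Red marks above the line are DMRs with higher and blue marks below the line DMRs with lower methylation in obese mice. In the top panel the 4 leftmost of 10 are red and the 4 rightmost blue, and in the Sall3 panel the 6 leftmost of 9 are red.

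A total of 1479 genes had the nearest start to at least 1 far intergenic DMR, 1014 of them to 1 DMR and 7 to 6 DMRs. These 7 were 4933430M04Rik, Mroh5, Olfm4, Ptpru, Rps29, Sall3 and Sorcs1. For Ptpru 1 of its 6 DMRs was higher and 5 lower, for Sall3 all 6 were higher, and for Sorcs1 and Rps29 there were 3 of each. The other 8 genes at the ends of these gaps were nearest to 2 DMRs (Bai1) to 5 (Dsel).

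The nearest genes passed the filter on low counts less often than other genes. Only 645 of 1479 (43.6%, 41.1% to 46.2%) passed it, against 51.4% (49.99% to 52.9%) of genes nearest to other DMRs and 52.0% of all entries. Their median level was 0.104 CPM (counts scaled to a common library total), against 0.682 and 0.825, and 448 (30.3%, against 26.1% of all entries) had no count in any of 15 libraries. Of the 7 genes with 6 DMRs, Mroh5 and Sorcs1 had no count, and 4933430M04Rik and Sall3 were at most at 0.188 CPM. Olfm4 was at 0 to 0.42 CPM in all libraries but formerly obese replicate 5, at 1.98. Ptpru was expressed, at 12.1 to 21.5 CPM. Rps29, a ribosomal protein gene, was at 2.13 to 10.2 CPM, and since such genes have many near-identical copies in the genome its counts are uncertain.

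The neighbours included genes that direct development or join nerve cells. Of 101 such genes in the table, on a list written for gene deserts, 46 (45.5%) were nearest to a far intergenic DMR, against 5.9% of all entries. The list was written from knowledge of genes that flank deserts, so its share only describes where these DMRs lie. Foxd3, Irx3 and Nkx6-1 had 4 DMRs each, and Bmp7, which encodes a secreted growth factor, had 3, all higher in obese mice. Of the 46 genes 32 were below 1 CPM on average and 16 could be tested.

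Gene counts summed to 15230391 to 22762095 per RNA-seq library. The labels number the samples of a group from 1 to 5, and even the most alike samples of a group differed beyond counting noise, with a chi-square over its degrees of freedom of 5.74. Summed markers of colonic epithelium were at 16010 to 25380 CPM, and those of smooth muscle at 0.223 to 2.58, enteric neurons and glia at 0.452 to 2.23, adipocytes at 2.82 to 12.1, endothelium at 8.30 to 15.7, fibroblasts at 2.28 to 30.1 and immune cells at 13.5 to 40.8 CPM. Small intestine markers were at 324 to 773 CPM. Of these lists, 4 small intestine, 11 colonic epithelium and 1 adipocyte marker could be tested. In obese against control mice 2 small intestine markers (Alpi and Lyz1) were called higher. In formerly obese against control mice 3 small intestine, 2 colonic epithelium (Krt20 and Slc26a3) and 1 adipocyte marker (Cidec) were called higher. Slc26a3 was called higher and Lyz1 lower in formerly obese against obese mice. Of all genes 1.58%, 3.72% and 2.65% were called in these 3 comparisons. The 4 tested fibroblast markers had a median log2 fold change of 0.66 in obese and 1.09 in formerly obese against control mice, with 0 called by edgeR or DESeq2 and 0 and 2 at an unadjusted p under 0.05. The part of these markers in the gene results was not tested. In bulk samples, fewer cells of a type and less RNA per cell cannot be told apart.

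In obese against control mice, 14 of the 645 tested nearest genes were called, 7 higher and 7 lower, which is 2.17% (1.19% to 3.62%) beside 1.58% of all 12961 genes tested. A gene was called at a fold change over 1.2, a p-value under 0.01 and an adjusted p under 0.25 (edgeR). Higher calls were made for 0.718% of all genes and lower calls for 0.864%. The share was thus near that of all genes. The median log2 fold change was 0.01 over the nearest genes and 0.00 over all. The count depended on single libraries. With control replicate 2 left out it was 2. Leaving out obese replicate 3, 5, 4 or 2 gave 2, 3, 6 or 23. Over all genes these 5 fits made 44, 40, 55, 85 and 331 calls. At an adjusted p under 0.05 only Pcdh17 remained.

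Pcdh17, an adhesion protein gene at one end of the gap of 4422 kb, had the smallest p-value. It had 3 nearest DMRs, 587, 993 and 1743 kb before its start, 1 higher and 2 lower in obese mice. Its level was 79.0, 78.6, 76.8, 72.6 and 61.0 CPM in control mice, 98.1, 95.4, 107, 102 and 99.3 in obese mice and 87.1, 78.1, 81.3, 78.4 and 70.8 in formerly obese mice. All obese mice were above all others. The log2 fold change was 0.45 ± 0.07 (SE) in obese against control mice (adjusted p = 0.0160), -0.34 ± 0.07 in formerly obese against obese mice (adjusted p = 0.0468) and 0.10 ± 0.07 in formerly obese against control mice (adjusted p = 0.459). Both calls held in each of 16 other settings of the fit.

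Gpam, which encodes the mitochondrial enzyme that starts triglyceride synthesis, was lower in obese mice. It had 2 far DMRs, chr19:54918793-54918804 lower and chr19:54932597-54932606 higher, 181 and 167 kb from the start, beyond the 3′ end of the gene. Its level was 61.5, 53.8, 64.3, 55.3 and 52.0 CPM in control mice, 44.5, 50.9, 43.2, 46.2 and 40.4 in obese mice and 40.6, 43.0, 49.2, 48.3 and 46.4 in formerly obese mice. Control mice were above all others. The log2 fold change was -0.35 ± 0.07 in obese (adjusted p = 0.0723) and -0.33 ± 0.07 in formerly obese mice (adjusted p = 0.0276) against the same control mice, and the calls held in each of 16 other settings.

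The remaining named genes of this comparison were called with less support, since each lost its call without at least 3 single libraries. Tmcc3 rose from 167 ± 16.8 to 204 ± 18.6 CPM (SD, n = 5 per group), Chordc1, an HSP90 partner gene, from 44.4 ± 2.36 to 53.5 ± 3.79, Zdhhc21, a palmitoyltransferase gene, from 90.9 ± 6.34 to 109.8 ± 12.98 and Pmepa1, an inhibitor of TGF-β signalling, from 13.3 ± 1.70 to 16.9 ± 1.65. Txndc16 fell from 50.8 ± 2.17 to 41.5 ± 4.91 CPM and Mylip, whose product degrades the LDL receptor, from 43.8 ± 4.10 to 33.4 ± 4.65. Cobl, an actin nucleator of microvilli, fell from 152 ± 16.3 to 125 ± 12.3 and Irs1, the insulin receptor substrate, from 9.90 ± 1.48 to 6.95 ± 1.68. Adjusted p ran from 0.118 for Txndc16 to 0.199 for Zdhhc21.

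The direction of the nearest DMR did not sort these calls cleanly. Of 5 called genes whose far DMRs were all higher in obese mice, 1 rose and 4 fell, and of 4 whose far DMRs were all lower, 3 rose and 1 fell. The other 5 had DMRs of both directions, and 3 of them rose. The median log2 fold change was 0.01 over all 385 tested genes with a higher DMR and 0.01 over all 373 with a lower one.

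In formerly obese against control mice, 36 of the 645 nearest genes were called, 21 higher and 15 lower. This is 5.58% (3.94% to 7.64%) beside 3.72% of all genes, where 1.85% were called higher and 1.87% lower. Among genes nearest to other DMRs 4.42% (3.63% to 5.33%) were called. The count was 30 to 43 when single libraries were left out, where 2.78% to 5.07% of all genes were called. Both comparisons use the same control mice, so their counts are not independent.

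Ccrn4l, which encodes the clock-controlled enzyme nocturnin, had the smallest p-value. Its far DMR, chr3:51088241-51088533, lay 136 kb before the start and was higher in obese mice. Its level was 39.6, 49.7, 43.3, 46.6 and 44.6 CPM in control mice, 42.6, 50.1, 56.5, 53.8 and 60.1 in obese mice and 66.8, 73.3, 58.6, 68.1 and 67.5 in formerly obese mice. Formerly obese mice were above all control mice and overlapped the obese mice at one value. The log2 fold change was 0.58 ± 0.08 against control mice (adjusted p = 0.00766) and 0.34 ± 0.08 against obese mice (adjusted p = 0.0790).

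Fam3c, a secreted signalling protein gene, had 5 far DMRs within 67.3 to 181 kb of its start, 4 higher and 1 lower in obese mice, and in all 5 windows the median stretch of 31 bases occurred once. Its level was 11.5, 8.64, 12.2, 12.6 and 9.78 CPM in control mice, 10.9, 12.2, 17.9, 13.8 and 13.6 in obese mice and 18.2, 17.2, 21.3, 16.7 and 15.7 in formerly obese mice. Formerly obese mice did not overlap control mice. On the log2 scale the difference was 0.71 ± 0.13 against control mice (adjusted p = 0.0209), with 0.32 ± 0.13 in obese mice (adjusted p = 0.376).

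Slc10a2, the bile acid transporter gene of the lower small intestine, had 4 far DMRs at 895 to 1646 kb, 1 higher and 3 lower. Its level was 45.8, 20.8, 57.2, 46.4 and 35.2 CPM in control mice, 37.2, 41.4, 74.3, 50 and 65.1 in obese mice and 65.1, 73.4, 86.9, 87.2 and 86.3 in formerly obese mice. Formerly obese mice were above all control mice. The fitted log2 fold change was 0.96 ± 0.21 (adjusted p = 0.0289). Of the 8 small intestine markers 4 could be tested and 3 of these, Sis, Alpi and Fabp2, were also called higher in formerly obese mice, while Lct, Apoa1 and Apoa4 stayed under 1 CPM and Defa24 at 0 in every library. Their part in the Slc10a2 value was not tested.

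Agpat9, another gene of triglyceride synthesis, rose from 17.4 ± 2.69 in control to 23.6 ± 1.84 CPM in formerly obese mice, and Spats2l from 13.4 ± 0.97 to 22.5 ± 5.65. Chordc1 rose to 57.2 ± 6.53 CPM, D1Ertd622e from 81.2 ± 7.48 to 98.6 ± 3.88 and Frk, a tyrosine kinase gene of epithelia, from 143 ± 12.1 to 174 ± 10.5. Rplp1, a ribosomal protein gene with the same uncertainty over copies, fell from 572 ± 35.7 to 467 ± 42.7. Frk lost its call without 4 single libraries, D1Ertd622e without 2 and Rplp1 without formerly obese replicate 2. Ptpru, beside the richest gap, was also called lower, at 16.5 ± 3.34 against 12.98 ± 0.83 CPM (log2 fold change -0.34 ± 0.11, adjusted p = 0.119), a call kept in 9 of 16 other settings.

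In formerly obese against obese mice, 22 of the 645 nearest genes were called, 10 higher and 12 lower. This is 3.41% (2.15% to 5.12%) beside 2.65% of all genes, where 1.23% were called higher and 1.42% lower. The count was 13 without obese replicate 1 and 11 without formerly obese replicate 5, while calls over all genes went to 195 and 167. At an adjusted p under 0.05 only Pmepa1 and Pcdh17 remained.

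Pmepa1 had one far DMR, chr2:173365617-173365647, 89.1 kb before its start and lower in obese mice. Its level was 14.3, 14.7, 10.8, 12.2 and 14.4 CPM in control mice, 19.5, 15.0, 16.3, 17.0 and 16.9 in obese mice and 10.8, 12.2, 12.5, 12 and 10.3 in formerly obese mice. Obese mice were above all others. This was a log2 fold change of -0.55 ± 0.10 in formerly obese against obese mice (adjusted p = 0.0297).

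Jun, which encodes a subunit of AP-1, had one far DMR 109 kb before its start, lower in obese mice. Its level was 245, 218, 233, 193 and 277 CPM in control mice, 208, 264, 252, 245 and 337 in obese mice and 184, 219, 201, 193 and 184 in formerly obese mice. The groups overlapped. The log2 fold change of formerly obese against obese mice was -0.41 ± 0.11 (adjusted p = 0.0886).

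Formerly obese mice had less Mycn, a proto-oncogene, than obese mice, at 2.58 ± 0.45 against 4.13 ± 0.60 CPM. In the same direction, B3galt2 fell from 14.3 ± 0.84 to 8.63 ± 1.54 and the sulfotransferase genes Hs3st1 and Chst15 from 17.2 ± 0.97 to 13.1 ± 1.90 and from 18.6 ± 2.88 to 13.1 ± 1.40. Rplp1 fell from 572 ± 35.3 to 467 ± 42.7 CPM. Lipg, endothelial lipase, rose from 56.9 ± 5.28 to 78.5 ± 11.1 CPM. Adjusted p of these 6 genes ran from 0.0569 for Rplp1 to 0.101 for B3galt2.

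**Figure D5:**
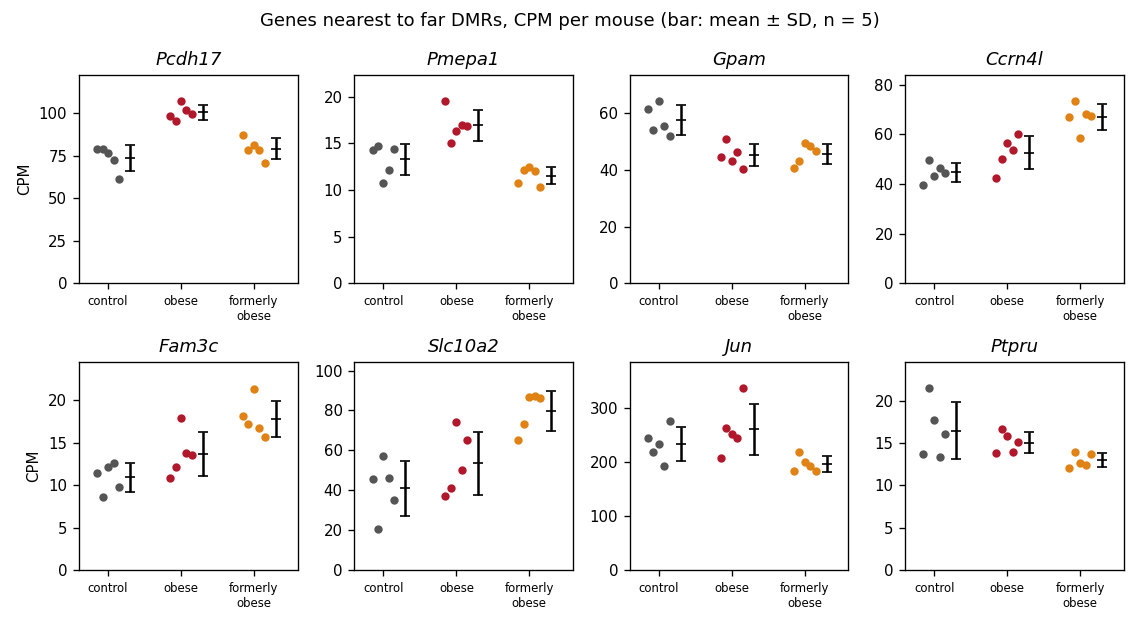
Points are CPM of single mice and bars the mean ± SD (n = 5) for control, obese and formerly obese mice, with the y axis of each panel starting at 0. Pcdh17 and Pmepa1 are highest in obese mice, Gpam is highest in control mice, and Ccrn4l, Fam3c and Slc10a2 are highest in formerly obese mice.

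Of the 32 tested genes of the desert-flanking list, 2 (6.25%, beside 1.58% of all genes) were called in obese against control mice, Pcdh17 and Cntn3, both higher. In formerly obese against control mice 4 (12.5%, beside 3.72%) were called, Bmp3, Cntn3, Pcdh20 and Tbx3, all higher. Against obese mice 2 (6.25%, beside 2.65%) were called, Bmp3 higher and Pcdh17 lower. Of these 5 genes only Pcdh17 was nearest to a far intergenic DMR. Among the 16 tested list genes nearest to one, 1, 0 and 1 were called in the 3 comparisons, in this order. The list is short and was chosen with earlier results of these data known, so its shares only describe its members. Cntn3, an adhesion protein gene, rose from 1.10 ± 0.18 to 2.17 ± 0.55 CPM in obese mice (adjusted p = 0.173). Pcdh20, with a mean of 9 counts, kept its call in 6 of 14 other settings and lost it with DESeq2. Bmp3 against obese mice kept it in 8 of 16, Cntn3 in obese mice in 11 of 16 and Tbx3 in 14 of 16.

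Of 10 listed enzymes that write, keep or remove DNA methylation, 8 passed the filter. In each comparison edgeR and DESeq2 called 0 of these 8, with 0 at an unadjusted p under 0.05, and with 1.58% to 3.72% of all genes called such a count is near the background. Dnmt1, which keeps methylation through cell division, was at 86.9, 86.9 and 90.7 CPM on average in control, obese and formerly obese mice, and Tet3, which starts its removal, at 176, 187 and 183 CPM. Tet2, of the same family, was itself nearest to a far DMR, 69.8 kb away and lower in obese mice, and was at 39.6, 39.2 and 42.6 CPM. Dnmt3l was at 0.

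BSP-seq could not be set against the far intergenic DMRs, since 0 of its 233 CpGs lay in one or within 5 kb of one, and the nearest amplicon was 180 kb away. However, 4 of its 23 amplicons lay in far intergenic DNA themselves, with 27 CpGs in all, and show how methylation varied there between mice. They were picked after seeing the data. The amplicon 63.1 kb from Gata6 was at 96.9% in every group, with an SD (n = 5) of 0.13 for control, 0.13 for obese and 0.12 for formerly obese mice. In the same order of groups, the amplicon 72.6 kb from Mir195b was at 85.2% ± 0.21, 85.3% ± 0.42 and 85.3% ± 0.25, and the one 67.2 kb from Sp3 at 81.2% ± 1.81, 80.3% ± 1.09 and 81.1% ± 1.14.

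The fourth amplicon, 51.4 kb from Polr1d on chromosome 5, was only partly methylated, at 47.5% ± 0.90, 48.6% ± 1.14 and 48.9% ± 0.78. Its value in formerly obese mice was 1.45 percentage points above that in control mice (exact two-sided permutation p = 0.0397, adjusted p = 0.476 over 12 tests), and the other 11 tests had larger p-values. In a limma fit over all 233 CpGs, 0 of the 27 CpGs passed an adjusted p of 0.05 in any comparison. Of all 233 CpGs, 1 passed in obese against control, 1 in formerly obese against control and 0 in formerly obese against obese mice. The count of 0 among the 27 is thus near that of all CpGs. In the same order, 2, 4 and 1 of the 27 had an unadjusted p under 0.05. Without formerly obese replicate 2, 1 CpG passed in formerly obese against control mice (smallest adjusted p = 0.0381).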

How the data were processed

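For WGBS, the authors aligned reads to mm10 (Bismark), tested each CpG for a difference (Rao-Scott), merged nearby CpGs and deposited a list of regions with position and direction, without a score or a value per mouse. For RNA-seq, the authors mapped reads of a stranded kit with TopHat2 2.0.4 and deposited raw counts per gene from HTSeq. The strand setting was not given in the sources used here, so overlapping and antisense genes are uncertain. BSP-seq values were deposited as a methylated fraction for every CpG in every mouse and are written here as percent. The table gives no read depth beside them, and of 253 entries the repeats of a CpG were dropped. Deposited DESeq2 tables of fold changes and p-values were not used.

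Members, gene lists and tests were chosen with earlier results of these data known. Sequence came from NCBI RefSeq GRCm38.p6. Alike windows were found with BLAST (blastn) at 90% identity over 150 bases. Counts were fitted over all genes and 15 libraries with edgeR 4.0.16 in R 4.3.3 (quasi-likelihood, TMM, filterByExpr), and methylation with limma 3.58.1. The edgeR step was tested on simulated data of 12889 genes, where it called 185 of 200 changed genes with 33 false calls. CPM are TMM-scaled.

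Named genes were, per comparison, up to 10 called nearest genes in order of p whose counts averaged 50 or more, the genes bounding the 6 richest gaps, those nearest to the most DMRs (7 genes had 6, and 13 tied at 5 were not named) and called list members. Named DMRs were the 5 farthest, widest and richest in CpGs, and sequences of alike copies were added after their values were seen. Alternatives were other distances, annotations, windows, filters, scalings, DESeq2 1.42.0 and each library left out.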

Additional observations from a re-analysis of the deposited data

Results flagged for a closer look

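Outliers were sought by Dixon's test in 111 groups of 5 mice, over the tested named genes and the 4 far intergenic amplicons. Chance flags about 1 in 20 such groups, and 5 were found, each a mouse above the rest of its group. B3galt2 was at 15.8 CPM in obese replicate 3, against 13.8 to 14.1 in the others. Rps29 was at 10.2 CPM in control replicate 4, against 2.95 to 4.30, and at 6.07 CPM in obese replicate 5, against 3.36 to 4.10. Tmcc3 was at 196 CPM in control replicate 4, against 154 to 165. The amplicon near Polr1d was at 50.3% in formerly obese replicate 4, against 48.4% to 48.7%.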

How the results depend on the processing

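The number of far intergenic DMRs moved with its definition, to 1467 at over 100 kb, 762 by the spans and starts of GENCODE M21, 4317 when only expressed genes were counted and 957 at a width of at least 50 bases. The share higher in obese mice was 54.9% by GENCODE M21 and within the main interval otherwise. Sequence values hold for the stated window. Median CpGs per 100 bases were 5.41 in the DMRs, 1.33 in 300 and 1.00 in 1000 bases, median GC 52.5%, 46.3% and 44.2%, and 23.4% of 1000-base windows were over 50% masked against 28.03% of DMRs. In 200 bases, motif shares were 6.18% for AP-1, 3.23% for ETS, 5.23% for E-box, 10.5% for CDX, 3.73% for HNF4, 12.5% for GATA, 4.498% for FOXA and 14.7% for KLF. Of all other DMR windows of 200 bases, 10.2% held GATA, 3.1% FOXA and 16.7% KLF. At this width the KLF intervals overlapped (13.2% to 16.2% against 15.8% to 17.7%).

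Called nearest genes in obese against control mice numbered 1 at an adjusted p under 0.05 alone. With both genes bounding the gap, 23 of 1046 were called (2.2%, beside 1.58% of all genes). Leaving out each library gave 2 to 23 nearest genes (0.309% to 3.55%, beside 0.308% to 2.54% of all genes). In formerly obese against control mice leaving out a library gave 30 to 43 (4.63% to 6.67%, beside 2.78% to 5.07% of all genes). In formerly obese against obese mice it gave 11 to 31 (1.71% to 4.79%, beside 1.28% to 3.08%), with 2 at an adjusted p under 0.05 alone. None of the 45 calls of named genes changed sign in these settings, a count that leaves out comparisons in which they were not called. Deviations of same-numbered mice had correlations of both signs (-0.231 to 0.333). In all 3 pairs of groups they were positive for replicate 2 (0.163 to 0.220) and negative for replicates 1 and 5. Whether the numbers pair mice cannot be told from these values. With a replicate block, 18, 37 and 25 nearest genes were called in the 3 comparisons. This is 2.79%, 5.74% and 3.88%, beside 1.94%, 4.14% and 2.67% of all genes. Among CpGs of far intergenic amplicons, 1 passed an adjusted p of 0.05 in formerly obese against control mice with the block (smallest 0.0187) and 0 without it. No paired analysis was possible for amplicon CpGs in far intergenic DMRs because there were 0, also within 5 kb, and the other planned settings for them gave no value. The list has no p-value per DMR, so no stricter threshold was tried. Read depth per CpG was not used here, and p-values measure the spread between these mice.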
